A study of Mus musculus with 12 samples.

Results

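Dppa2, Dppa3, Dppa4, Dppa5a, Tdgf1, Utf1, Sall4 and L1td1 are genes known for their activity in pluripotent cells, and the open chromatin at these 8 loci is described here. They were taken by name, out of 21883 mouse protein-coding genes, with earlier results of these data known. For each gene, every ATAC-seq peak that overlapped the gene or the 10 kb on either side of it (its window) was collected from 12 peak lists. Overlapping peaks of different libraries were merged into regions, which gave 54 regions out of 97889 in the genome. A region counts as listed in a library when at least 1 peak of that library overlaps it.

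The cells were BL6xCAST mouse embryonic stem cells that carried 1 of 2 synthetic constructs on chromosome X. One was synHPRT1R, the reversed form of a human HPRT1 locus, and the other was synHPRT1, the same locus in its natural order. Each genotype had 6 libraries, from 2 clones with 3 replicates per clone, and no library of cells without a construct was analysed here. Both genotypes were kept on gelatin, in a medium that was largely 2i (inhibitors of MEK and GSK3) with LIF, and the study asked whether the constructs were accessible beside the rest of the genome. Whether the replicates of 1 clone were grown as separate cultures is not stated in the labels, so p-values measure the spread between libraries, which may be technical, and 2 clones per genotype limit what can be said of a genotype.

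ATAC-seq marks DNA that is open to the transposase Tn5, and active promoters and enhancers stand out as peaks. In the naive state held by 2i and LIF, the transcription factors OCT4, SOX2, NANOG, ESRRB and the KLF proteins bind clusters of enhancers near the genes of the pluripotency program. The 8 genes act downstream of or alongside that core. DPPA2 and DPPA4 are SAP-domain chromatin proteins that work as a pair, DPPA3 (Stella) shields DNA from methylation in the oocyte, and DPPA5A is an RNA-binding KH-domain protein. TDGF1 (Cripto) is the co-receptor of the growth factor Nodal, UTF1 and SALL4 are chromatin-bound nuclear factors, and L1TD1 is an RNA-binding protein derived from a LINE-1 retrotransposon. A peak shows that DNA is accessible, not that the gene is transcribed.

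The promoter sequence is shown for the genes whose start could be set against the peaks, because their peaks fell in different places relative to it. The RefSeq promoter table (GRCm38.p6, 250 bases before to 50 after the start) holds 3 of the 8 genes. Capitals mark GC boxes (GGGCGG on either strand, the motif bound by SP and KLF factors) and the heptamer GGCGTGG on either strand, which was added to the search after these sequences had been seen.
L1td1 (chr4:98726504-98726803, plus strand): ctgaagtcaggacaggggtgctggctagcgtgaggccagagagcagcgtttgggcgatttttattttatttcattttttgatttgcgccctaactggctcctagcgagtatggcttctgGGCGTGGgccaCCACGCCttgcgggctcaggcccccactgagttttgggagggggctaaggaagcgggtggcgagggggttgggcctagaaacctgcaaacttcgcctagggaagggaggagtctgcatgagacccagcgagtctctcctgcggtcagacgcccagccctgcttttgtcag
Utf1 (chr7:139943606-139943905, plus strand): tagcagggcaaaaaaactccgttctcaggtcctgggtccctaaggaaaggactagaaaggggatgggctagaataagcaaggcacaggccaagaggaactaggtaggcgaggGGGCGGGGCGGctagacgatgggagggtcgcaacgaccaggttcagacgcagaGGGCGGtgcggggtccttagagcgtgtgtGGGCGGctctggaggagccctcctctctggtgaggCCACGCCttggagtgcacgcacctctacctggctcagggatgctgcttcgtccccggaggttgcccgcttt
Tdgf1 (chr9:110946109-110946408, minus strand): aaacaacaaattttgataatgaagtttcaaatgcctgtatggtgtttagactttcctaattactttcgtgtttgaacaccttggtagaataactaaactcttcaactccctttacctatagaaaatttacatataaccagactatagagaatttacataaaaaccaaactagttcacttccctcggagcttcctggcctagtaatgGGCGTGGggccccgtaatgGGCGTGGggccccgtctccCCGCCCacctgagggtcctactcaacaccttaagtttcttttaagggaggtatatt
Dppa2, Dppa3, Dppa4, Dppa5a and Sall4 were not matched.

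The Utf1 promoter was the richest of the 3 in CpG, with 17 CpG dinucleotides and 62.0% GC. L1td1 had 14 CpG and 58.7% GC, and Tdgf1 had 7 CpG and 41.7% GC. The medians over 32851 promoters were 7 CpG and 52.7% GC, so Utf1 and L1td1 lay above both medians and Tdgf1 lay below the median GC. Utf1 held 4 GC boxes, the first pair sharing 1 base, Tdgf1 held 1 on the reverse strand that ended 1 base before the start, and L1td1 held none. GC boxes occur in 35.7% of all promoters. The heptamer, found in 8.55% of all promoters, occurred 2 times in L1td1, 1 time in Utf1 and 2 times in Tdgf1. Its forward copies in L1td1 and Tdgf1 follow a G and read GGGCGTGG, which differs by 1 base from the exact KLF box searched next. None of the 3 windows held the octamer ATGCAAAT (1.74% of promoters), the SOX core ACAATG (12.6%), the ESRRB half-site AAGGTCA (4.72%), the KLF box GGGTGTGG (3.56%), TATAAA (13.6%), CCAAT (37.4%), CACGTG (7.15%), CCGGAAG (8.86%) or TGCGCA (7.76%), each searched on both strands.

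All 8 genes had at least 1 peak in their window in all 12 libraries. Of the 54 regions, 16 (29.6%) were listed in all 12 libraries, 26 in 2 to 11 libraries and 12 in a single library. Over the genome 23.8% of all regions were listed in all 12, and 26% of those within 10 kb of a protein-coding gene. The share at the 8 genes was near the latter. When peaks had to cover 50% of a merged region, 2 of the 54 were in all 12 libraries (9.51% of all regions). Among peaks whose −log10 q-value reached 5 the count was 8, from regions merged anew. Over the genome such peaks formed 61607 regions, with 26.4% in all 12 libraries. Their number at the 8 genes is not given here, so the 8 is not a share of the 54. A total of 18 regions overlapped one of the 8 genes and 36 lay outside them. A region in all 12 libraries was present in the window of 7 of the 8 genes, Sall4 being the exception, against 65.1% of protein-coding genes. For 5 of the 8 genes all 12 libraries had a peak no farther than 1 kb from 1 of the gene's ends, against 48.1% of protein-coding genes. At the other 3 genes such a peak was listed in 11 libraries for Sall4, 10 for Dppa4 and 9 for Dppa3.

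**Figure D1:**
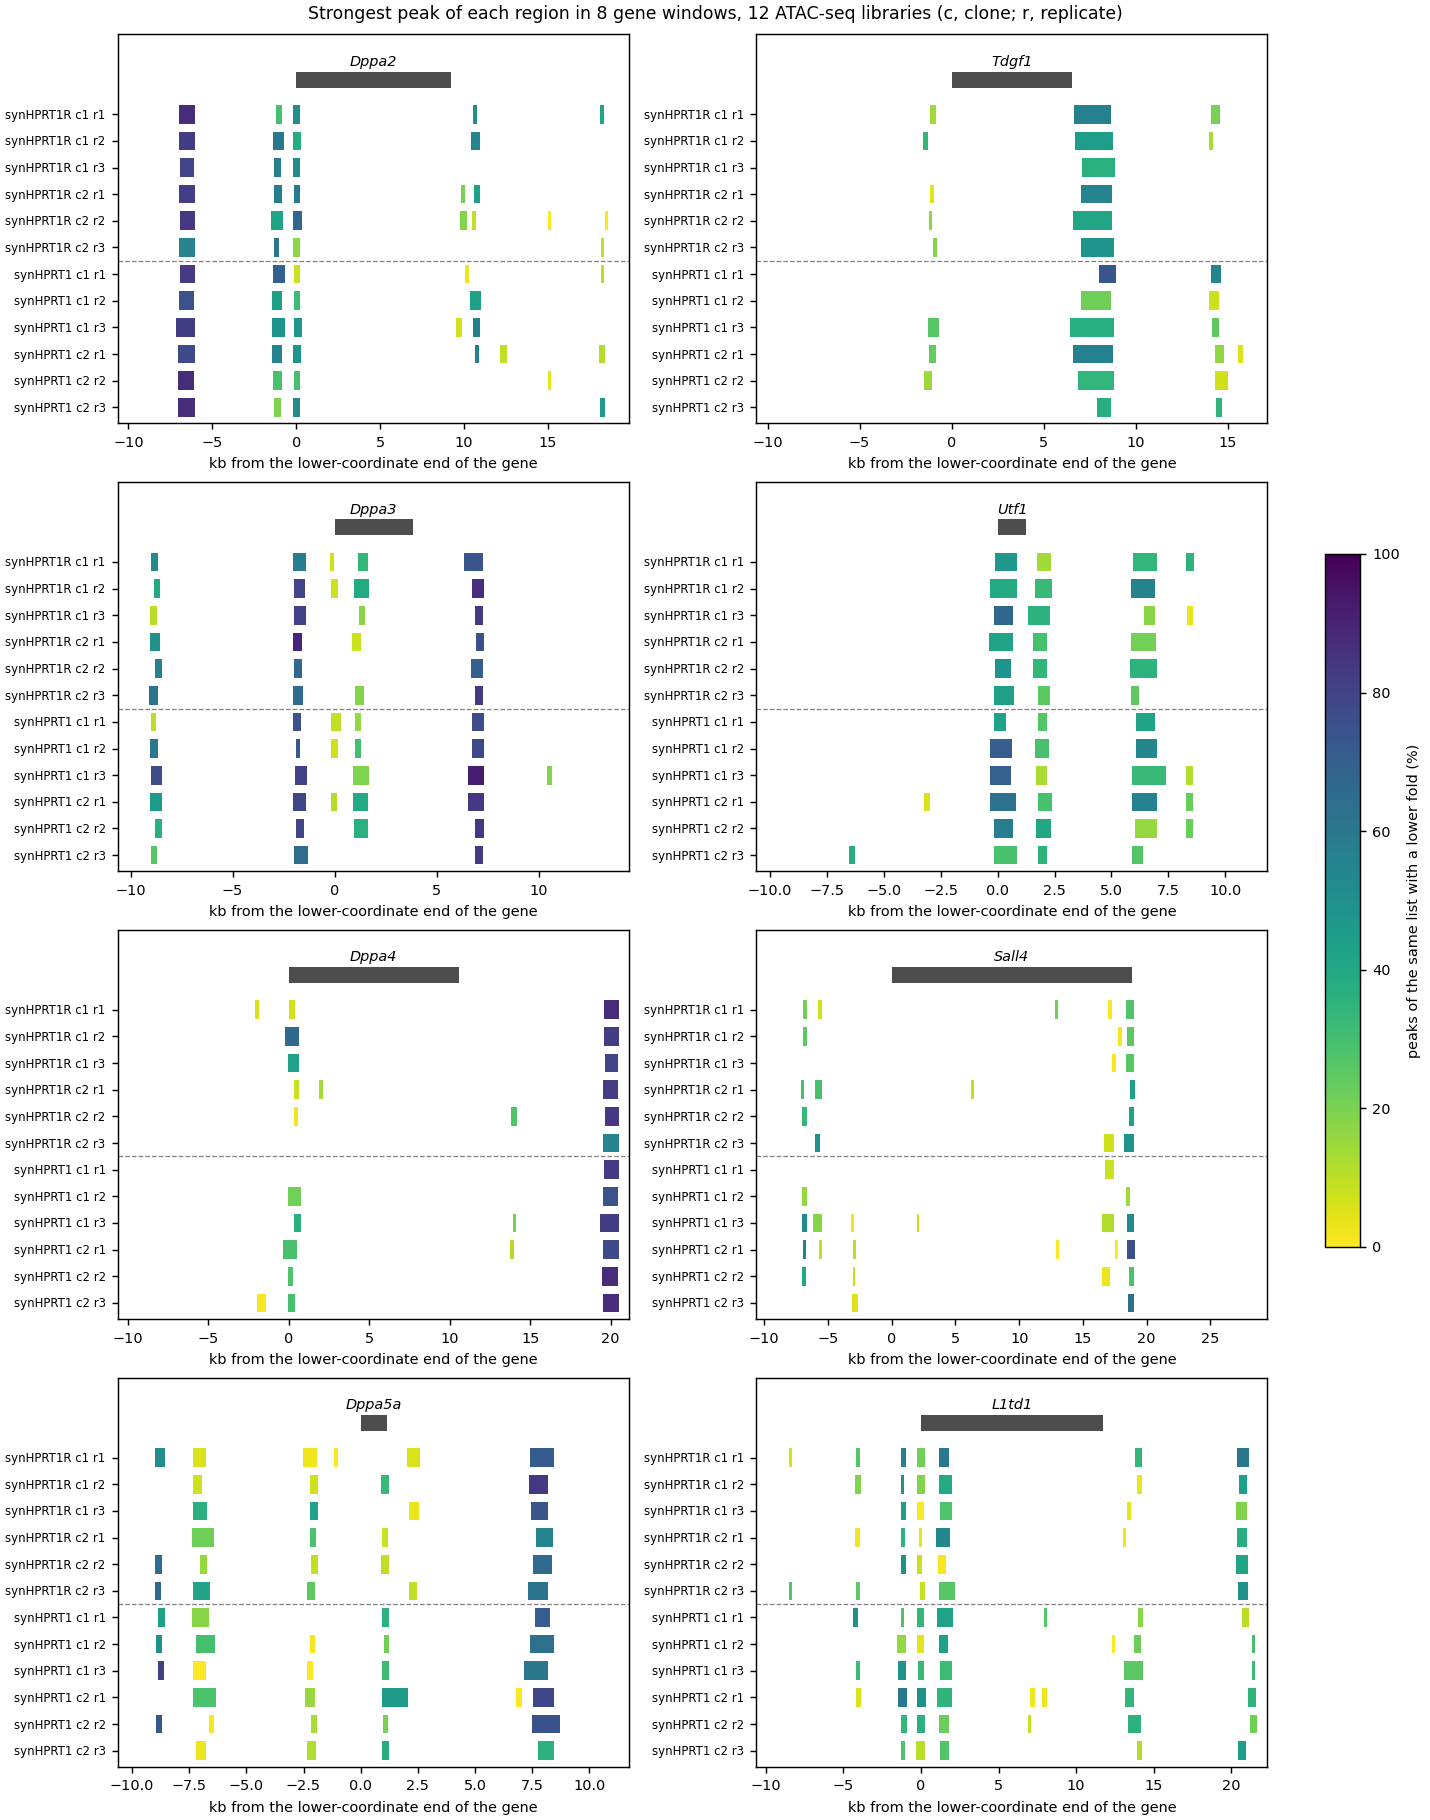
Peaks in the 8 gene windows, 1 row per library with synHPRT1R above the dashed line and synHPRT1 below it, against the distance in kb from the lower-coordinate end of the gene (grey bar). The colour of each block is the percent of peaks in the same list with a lower fold, and the darkest blocks lie beside Dppa2, Dppa4 and Dppa3 and not on them.

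Peak strength is given as the in-list percentile, the percent of peaks in the same library's list whose fold is lower. Fold is the authors' enrichment of the summit over the local background. As a ratio it differs from the summit pileup, the coverage at the summit recovered from fold and −log10 p-value. Percentiles from lists of different lengths are descriptions of rank within a list. Averaged over the 12 libraries, the strongest peak of the window stood highest for Dppa3 (82.3 ± 6.39%, SD, n = 12), Dppa2 (80.7 ± 7.39%) and Dppa4 (80.2 ± 8.91%). Dppa5a followed at 68.6 ± 12.8%, then Utf1 at 53.7 ± 11.7%, L1td1 at 48.9 ± 6.86%, Tdgf1 at 45.2 ± 13.5% and Sall4 at 39.3 ± 19.5%. The order depends on the measure: ranked by −log10 p-value, Dppa2 (89.2%), Dppa4 (88.2%) and Dppa5a (85.5%) stood above Dppa3 (84.7%). With a 2 kb window Dppa4 fell to 23.0% and Dppa5a to 28%. Neighbours in the order by fold differed by less than the larger of their SDs, except Dppa5a and Utf1, which lay 14.9 points apart. The first 3 genes stood above the median of all protein-coding genes (67.7%), Dppa5a was at about that median, and the last 4 stood below it.

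**Figure D2:**
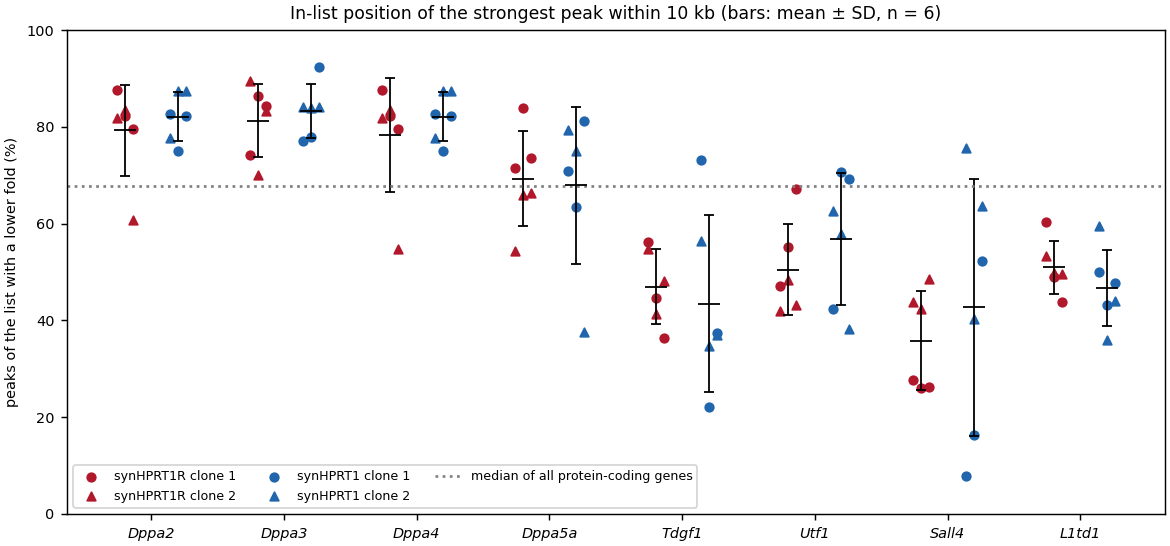
In-list percentile of the strongest peak in each window, 1 point per library (circles, clone 1; triangles, clone 2), synHPRT1R in red to the left of synHPRT1 in blue, with mean ± SD (n = 6 each) and the median of all protein-coding genes, 67.7%, as a dotted line. The genotypes overlap for all 8 genes, and the spread is widest for Sall4 in synHPRT1.

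Dppa2 and Dppa4 are neighbours on chromosome 16 (Dppa2 at 48310274 to 48319513, gene ID 73703; Dppa4 at 48283735 to 48294292, gene ID 73693), and 1 region between them was the strongest for both. This region, chr16:48303084-48304268, lies 6006 bp below the lower end of Dppa2 and 8792 bp above the upper end of Dppa4, and it overlaps neither gene. It was listed in all 12 libraries with a fold of 7.38 ± 0.85 (SD, n = 12; range 5.42 to 8.53). Its percentile was 54.7, 82.1 and 87.6% (lowest, median and highest) in synHPRT1R and 75.0, 82.6 and 87.5% in synHPRT1. The genotypes overlapped, and the low value came from synHPRT1R clone 2 replicate 3. It was the strongest peak of the Dppa4 window in all 12 libraries and of the Dppa2 window in 11, and its peaks covered at least 71.1% of the merged region in every library.

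Closer to Dppa2, 2 more regions were listed in all 12 libraries. The region that ends 672 bp below the lower end of the gene had a fold of 5.06 ± 0.73, and the region across that end (chr16:48310068-48310619) had a fold of 4.76 ± 0.83 (SD, n = 12 each). Their mean percentiles were 47.7 ± 15.6% and 41.8 ± 17.5%, both below the region between the genes. The last 5 regions of the Dppa2 window lay above its upper end and were listed in 1 to 7 libraries. At Dppa4, the region at the lower end (chr16:48283370-48284487) was listed in 10 libraries, 5 of each genotype, with a fold of 4.09 ± 0.90. Its strongest peak reached the gene end in 6 of them, 2 of synHPRT1R and 4 of synHPRT1, and began 18 to 316 bp inside the gene in the other 4. It was missing from synHPRT1R clone 2 replicate 3 and synHPRT1 clone 1 replicate 1, and its percentile ran between 1.95 and 66.1%. The 3 further Dppa4 regions were listed in 1 to 3 libraries, so Dppa4 had 1 of its 5 regions in all 12 libraries, against 3 of 8 for Dppa2.

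Dppa3 (chromosome 6, 122626424 to 122630271, gene ID 73708) was flanked by a pair of peaks of high fold, with peaks of lower fold on the gene itself. Their median summit pileups lay closer together. The pileup was 24.5 in the flanking region above the gene and 35.5 in the one below it. It was 23.5 in the region inside the gene and 20 in the region at its lower end. The region 2488 bp above its upper end, chr6:122632759-122633741, was listed in all 12 libraries with a fold of 7.48 ± 0.84 (SD, n = 12; range 6.35 to 9.33). Its percentile was 70.1, 79.0 and 86.4% (lowest, median and highest) in synHPRT1R and 77.2, 84.1 and 92.5% in synHPRT1, so the genotypes overlapped. The summits of its 12 peaks had an SD of 28.9 bp. The region 1291 bp below the lower end, chr6:122624387-122625133, was also in all 12 libraries, with a fold of 6.82 ± 0.73, a percentile of 74.3 ± 9.12% and a summit SD of 33.7 bp. One more region in all 12 libraries, 8452 bp below the gene, had a fold of 4.99 ± 0.96. The region at the lower end of Dppa3 was listed in 5 libraries, at a percentile of 8.47 ± 1.69% (SD, n = 5). The region inside the gene was listed in 10, at 25.9 ± 11.2% (SD, n = 10).

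Dppa5a (chromosome 9, 78367052 to 78368199, gene ID 434423) had the highest density of regions among the 8 genes, with 7 in its window. The highest, chr9:78374177-78375763, lies 5978 bp above the gene, was listed in all 12 libraries with a fold of 6.21 ± 0.80 (SD, n = 12), and was the strongest of the window in 9. Its percentile was 54.4, 68.7 and 83.9% (lowest, median and highest) in synHPRT1R and 36.3, 67.2 and 79.3% in synHPRT1. The merged region at the upper end of the gene, chr9:78367930-78369665, was listed in all 12 libraries but joins separate peaks. A peak over the gene end itself was listed in 9 libraries, 3 of synHPRT1R and 6 of synHPRT1, with a fold of 4.09 ± 0.53 (SD, n = 9). Its percentile was 8.53, 9.81 and 32.5% in those synHPRT1R libraries and 20.3, 33.7 and 45.0% (lowest, median and highest) in synHPRT1, so the groups overlapped. In the other 3 synHPRT1R libraries the region held only a peak that began 865 to 973 bp above the gene. The difference in listing of the peak over the gene end was not tested. A region 6341 bp below the gene, also in all 12 libraries, had a fold of 3.65 ± 0.68. Some of these genes have near-identical copies, and reads could be shared with them. The Dppa5b, Dppa5c, Dppa3-ps, Tdgf1-ps1 and Tdgf1-ps2 copies had a peak on the copy itself in 0 of 12 libraries. The 10 kb around each copy were not searched. How multi-mapping reads were treated is not known, so this does not show whether reads were shared.

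Tdgf1 (chromosome 9, 110939608 to 110946158, minus strand, gene ID 21667) had 1 region in all 12 libraries out of 4, and its summits lay upstream of the RefSeq start. This region, chr9:110946043-110948510, was the strongest of the window in all 12 libraries, with a fold of 4.91 ± 0.69 (SD, n = 12). Its percentile was 36.4, 46.4 and 56.3% (lowest, median and highest) in synHPRT1R and 22.1, 37.2 and 73.2% in synHPRT1. The genotypes overlapped, with the wider spread in synHPRT1. The summit of its strongest peak lay 960 to 1731 bp upstream of the start (median 1501.5 bp), and 0 of 12 summits fell inside the promoter window printed above. That peak covered the start itself in 1 of 12 libraries. A region 672 bp below the gene was listed in 8 libraries, 5 of synHPRT1R and 3 of synHPRT1. The region chr9:110953581-110954592, inside the neighbouring gene Lrrc2, was listed in 2 synHPRT1R libraries and in all 6 synHPRT1 libraries (Fisher's exact test, two-sided p = 0.0606, adjusted p = 1). Both synHPRT1R libraries were of clone 1, and 0 of 3 of clone 2 listed it.

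Utf1 (chromosome 7, 139943856 to 139945112, plus strand, gene ID 22286) had 3 regions in all 12 libraries, and the peak over its start was the strongest of the window in most libraries. The region chr7:139943489-139944720 had a fold of 5.24 ± 0.65 (SD, n = 12) and was the strongest in 10 libraries. Its percentile was 39.3, 45.1 and 67.1% (lowest, median and highest) in synHPRT1R and 28.6, 60.2 and 70.8% in synHPRT1. In all 12 libraries the peak covered the start, with the summit between 68 bp upstream and 197 bp downstream of it (median 32 bp upstream). In 9 libraries the summit fell inside the printed promoter, and in 5 the peak covered that whole window. The other regions in all 12 libraries lay 84 bp and 4562 bp above the gene, with folds of 4.16 ± 0.44 and 4.42 ± 0.55. Inside the neighbouring gene Kndc1, 2 regions were each listed in 1 library of synHPRT1 clone 2, and in replicate 3 of that clone 1 of them was the strongest of the Utf1 window, at 38.2%.

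L1td1 (chromosome 4, 98726754 to 98738486, plus strand, gene ID 381591) had the most regions, 10, and no single dominant one. Its promoter region, chr4:98726459-98727060, was listed in all 12 libraries with a fold of 3.76 ± 0.56 (SD, n = 12). Its percentile was 0.695, 8.63 and 21.5% (lowest, median and highest) in synHPRT1R and 3.92, 33.3 and 48.9% in synHPRT1. The synHPRT1R libraries all lay below the synHPRT1 median, but the groups overlapped. The peak covered the start in all 12 libraries, all 12 summits fell inside the printed promoter, between 120 bp upstream and 41 bp downstream of the start (median 13 bp upstream), and 6 peaks covered the whole of it. At both Utf1 and L1td1 the peak thus sat on the start, and the L1td1 peak ranked lower by fold. By median summit pileup it was not lower, with 33.5 for L1td1 and 31 for Utf1. The region inside the gene at chr4:98727743-98729001 and the region 8560 bp above it were also in all 12 libraries, with folds of 4.39 ± 0.64 and 4.46 ± 0.61. The strongest peak of the window was the region 900 bp below the gene in 5 libraries, and 4 other regions took that place in the rest.

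Sall4 (chromosome 2, 168748332 to 168767201, gene ID 99377), the longest of the 8 genes, had 9 regions and none in all 12 libraries. The region at its upper end, chr2:168766533-168767410, was listed in 11 libraries, all 6 of synHPRT1R and 5 of synHPRT1, with a fold of 4.74 ± 0.95 (SD, n = 11). Its percentile was 25.6, 35.0 and 48.3% (lowest, median and highest) in synHPRT1R and 14.1, 52.3 and 75.7% in the synHPRT1 libraries that listed it. It was missing from synHPRT1 clone 1 replicate 1, where the strongest Sall4 peak stood at 7.91%. In synHPRT1R the strongest peak of the window was at 26.0 to 27.7% in clone 1 and 42.4 to 48.6% in clone 2. In synHPRT1 clone 1 it was at 7.91, 16.3 and 52.3%, and in clone 2 at 75.7, 40.3 and 63.7%. The clones did not overlap in synHPRT1R and overlapped in synHPRT1. This difference between clones was not tested, and the share of all genes whose clones separate like this is not given here. The values come from lists of different lengths and not always from the same region. A weak region 2656 bp below the gene was listed in 0 of 6 synHPRT1R libraries and in 4 of 6 synHPRT1 libraries (Fisher's exact test, two-sided p = 0.0606, adjusted p = 1). In the neighbouring gene Atp9a, 2 regions were listed in 8 and 5 libraries.

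The peaks of highest fold of the Dppa genes lay away from the gene ends. Measured from the edge of the library's own peak, the strongest peak was over 1 kb from both gene ends in all 12 libraries for Dppa2, Dppa3 and Dppa4, and in 11 for Dppa5a. This held for 3 of the 8 genes in all libraries, against 26.9% of the 14867 protein-coding genes with a peak in every library. The 3 genes stand for 2 loci, since Dppa2 and Dppa4 share their region, and Dppa2 is counted through 1 library whose strongest peak ended 1008 bp from the gene. The strongest peak was within 1 kb of a gene end in all 12 libraries for 0 of the 8 genes, against 36.8% of those genes. Among the 16 regions in all 12 libraries, the 8 whose merged region came within 1 kb of an end of their gene had a median percentile of 38.0% (range 19.0 to 51.6%) and the 8 farther away had 55.2% (range 17.5 to 81.1%). Over the genome the median was 76.7% for the 9717 such regions within 1 kb of a gene end and 67.5% for the 7545 farther away within 10 kb of a gene. The 2 medians thus stood in opposite order at the 8 genes and over the genome. With 8 regions a side this is a description, and it rests on rank by fold. By median summit pileup the 8 regions near an end ran between 29 and 40.5 and the 8 farther away between 17 and 41.5. The farther regions thus did not stand above by that measure, which was not compared over the genome.

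**Figure D3:**
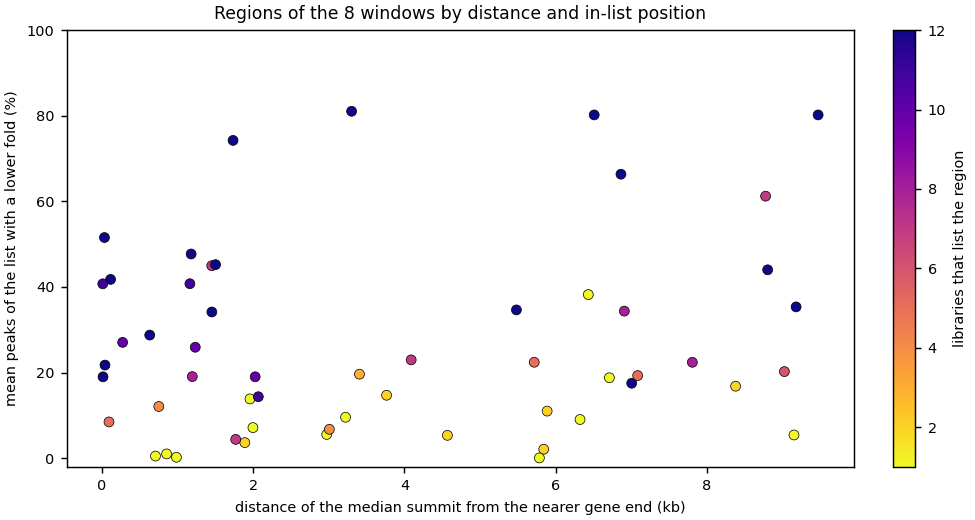
Mean in-list percentile of each region of the 8 windows against the distance of its median summit from the nearer end of the gene in kb, coloured by the number of libraries that list it; the region between Dppa2 and Dppa4 appears once for each gene. The 4 points above 70% lie over 1 kb from a gene end, and the regions listed in 1 library lie at 38.2% or lower.

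The 8 windows held more regions per length than most genes. Density, the number of merged regions per 10 kb of window, had a median of 2.63 over the 8 genes, against 0.604 over all protein-coding genes and 0.748 over the 11511 with a window no longer than that of Sall4. It was highest in Dppa5a (3.31), L1td1 (3.15), Utf1 (2.82) and Dppa2 (2.74), where at least 99.1% of genes had a lower density. It was 2.52 in Dppa3, 2.32 in Sall4, 1.64 in Dppa4 and 1.51 in Tdgf1, with 86.9% of genes lower than Tdgf1. Counting only regions in all 12 libraries, the median was 0.986, against 0.166 over all protein-coding genes and 0.273 over those with the shorter windows. With only the peaks whose −log10 q-value reached 5 it was 1.69, against 0.407 and 0.472 in the same order. In lists of equal length it was 2.07, against 0.435 and 0.516. The region between Dppa2 and Dppa4 counts in both windows.

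**Figure D4:**
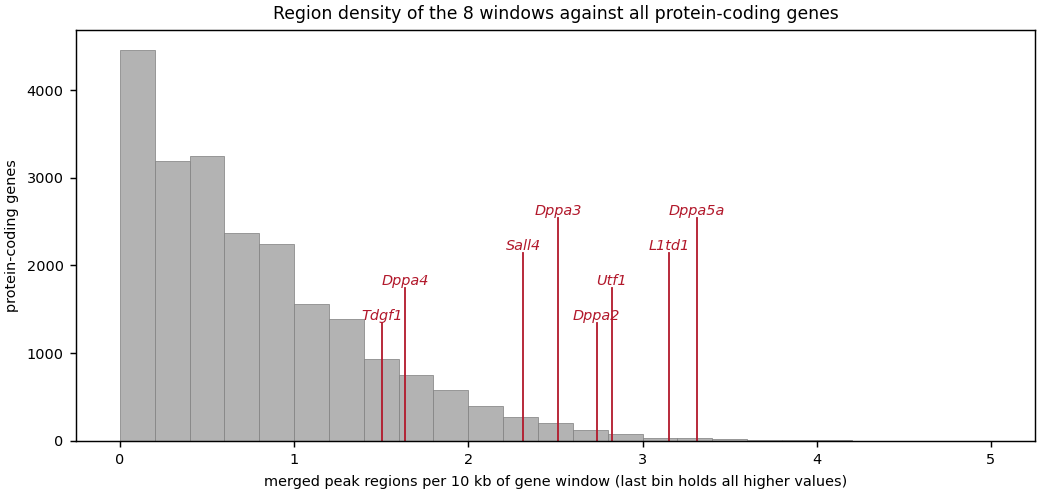
Number of protein-coding genes (grey bars) by merged peak regions per 10 kb of gene window, with the 8 genes as labelled red lines whose heights carry no value. The lines run between 1.51 for Tdgf1 and 3.31 for Dppa5a, in the upper tail of the grey bars.

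Each library listed between 24 and 41 of the 54 regions. In synHPRT1R, clone 1 listed 37, 29 and 24 and clone 2 listed 30, 28 and 26. In synHPRT1, clone 1 listed 27, 28 and 36 and clone 2 listed 41, 31 and 26. The genotypes overlapped, and the 3 libraries with the most regions were also those with the longest peak lists. The means were 29.0 ± 4.47 in synHPRT1R and 31.5 ± 5.89 in synHPRT1 (SD, n = 6 each), a difference of -2.5 regions (exact permutation test over libraries, two-sided p = 0.455). When every list was shortened to the 38403 peaks of the shortest, the means were 24.0 ± 1.79 in synHPRT1R and 23.7 ± 1.86 in synHPRT1, and the difference turned to 0.333 (exact permutation p = 0.872). The smallest p that 6 against 6 libraries allow is 0.00216, and 2 clones against 2 cannot go below 0.333.

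**Figure D5:**
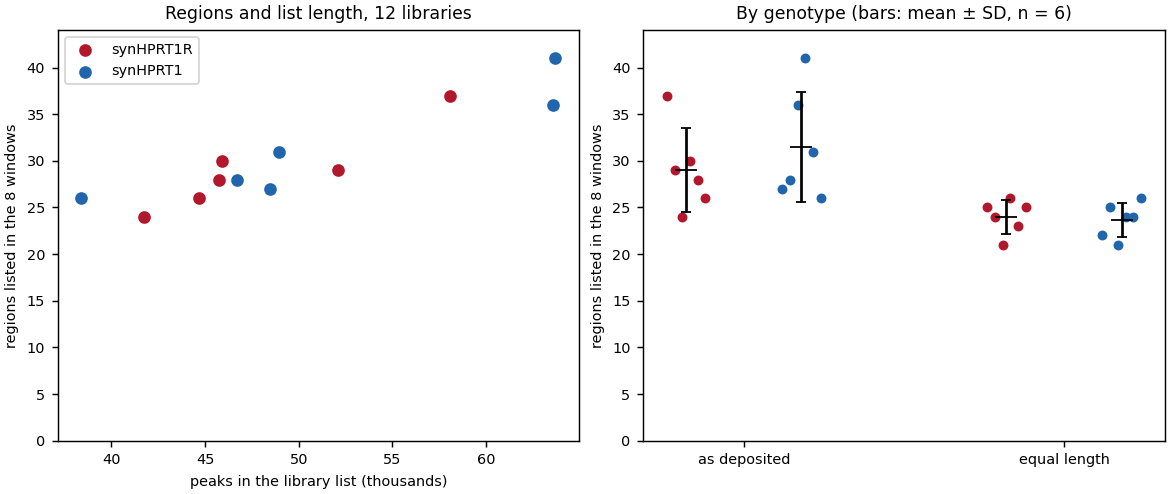
Left, regions of the 8 windows listed in each library against the number of peaks in its list, in units of 1000; right, the same counts by genotype, synHPRT1R in red and synHPRT1 in blue, in the deposited lists and in lists of equal length, with mean ± SD (n = 6 each). The counts run between 24 and 41 in the deposited lists, and the genotypes overlap in both.

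No region of the 8 genes passed the test of presence between genotypes. The 38 regions missing from at least 1 library were put to Fisher's exact test, and p-values were adjusted (Benjamini-Hochberg) over the 74604 such regions of the genome. After adjustment 0 passed (0% called), and 0 had an unadjusted p under 0.05 (0.22% of all regions did). The lowest p was that of the Tdgf1 and Sall4 regions given above. For rank, the strongest peak of each window was compared in lists of equal length by an exact permutation test. Of the 8 genes, 0 passed after adjustment over 17884 genes (0% called), 0 had an unadjusted p under 0.05 (5.31% of all genes did), and in 0 were the genotypes separate (0.106% of genes with synHPRT1R higher and 0.173% with it lower). In both tests, 6 libraries against 6 cannot give a p below 0.00216. A region or gene with fully separate genotypes could therefore pass adjustment only if very many others separated too. The adjusted results were thus nearly fixed in advance, and no conclusion is drawn from them.

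L1td1 came nearest, at 39.2 ± 4.52% in synHPRT1R and 29.4 ± 11.5% in synHPRT1 (SD, n = 6 each), a difference of 9.80 points (exact permutation p = 0.0844, adjusted p = 0.953). Tdgf1 was at 34.3 ± 7.53% in synHPRT1R and 26.1 ± 23.5% in synHPRT1, and Dppa5a at 62.0 ± 11.5% in synHPRT1R and 59.9 ± 11.9% in synHPRT1. Among the genes with the lower mean in synHPRT1R, Sall4 was at 21.7 ± 15.9% in synHPRT1R and 28.7 ± 27.2% in synHPRT1, and Utf1 at 37.8 ± 14.8% in synHPRT1R and 43.9 ± 12.6% in synHPRT1. In these 4 genes the difference was within the larger SD of the pair. For Dppa3 the means were 76.3 ± 10.9% in synHPRT1R and 78.2 ± 6.63% in synHPRT1. For Dppa2 they were 74.7 ± 10.2% in synHPRT1R and 75.5 ± 9.35% in synHPRT1, a difference of -0.815 points that turned to 3.27 (exact permutation p = 0.468) without synHPRT1R clone 2 replicate 3. For Dppa4, which shares the region, the difference of -1.98 points turned to the same 3.27. The exact permutation p-values of the 7 genes other than L1td1 ran between 0.448 and 0.896.

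Other genes of the pluripotency program were read from a list of 26, such as the core factor genes and Klf5, Phc1 and Nr5a2. A region in all 12 libraries was present in the window of 24 of the 26, against 65.1% of protein-coding genes. A peak at most 1 kb from a gene end was listed in every library for 17, against 48.1% of protein-coding genes. Their median density was 1.99 and the median of their mean percentile was 72.9%, against 2.63 and 61.1% for the 8 genes. The 8 genes' density was not the highest of the lists, as 6 trophoblast markers had a median of 2.69. It was 2.2 for 6 embryonic stem cell markers, all of them also among the 26. It was 0.754 for 6 primitive endoderm markers and 0.370 for 6 fibroblast or feeder markers. The lists were not matched for window length. The median window was 60006 bp for primitive endoderm and 53850.5 bp for fibroblast or feeder markers. It was 27895.5 bp for the 8 genes, 26242 bp for stem cell and 30446 bp for trophoblast markers. The lowest of the 26 was Klf4 at 35.1% and the highest Phc1, a Polycomb gene, at 94.0%. In the rank test 0 of the 26 passed after adjustment and 1 had an unadjusted p under 0.05, with synHPRT1R lower. The paralogs Sall1 (92.2 ± 4.41%) and Sall2 (86.2 ± 7.35%) stood above Sall4, and Sall3 (33.1 ± 13.0%) was near it (SD, n = 12 each). Cfc1, the Tdgf1 paralog, was at 72.0 ± 9.43%.

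The genes whose strongest peak had the most similar percentile profile over the 12 libraries, by the mean absolute difference, were the tied Gm36028 and Lrrc58 for Dppa2 (3.5 points) and Dppa4 (4.00 points). They were Zfp536 for Dppa3 (3.23 points), 4833439L19Rik for Dppa5a (4.27 points), Tdgf1 and Arid1a at 5.82 points, Utf1 and Lpl at 6.45 points, and L1td1 and Adamts1 at 3.73 points. The nearest profile to Sall4, that of Cdkn1c, was 10.5 points away, the largest distance of the 8.

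The markers of embryonic stem cells Pou5f1, Sox2, Nanog, Zfp42, Esrrb and Klf4 each had a region in all 12 libraries, 6 of 6. This held for 3 of 6 fibroblast or feeder markers, 4 of 6 trophoblast markers, 4 of 6 primitive endoderm markers and 1 of 6 genes silent in stem cells, 4 of which had no peak in any library. Of all protein-coding genes, 65.1% had such a region. The trophoblast and primitive endoderm counts were at about that share, and with 6 genes a list the differences between lists were not tested. An accessible region at a marker does not show that its cell type was present. The lists held 41737 to 58099 peaks in synHPRT1R and 38403 to 63704 in synHPRT1. Read totals are unknown from peak lists; the background pileup recovered from the fold and p-values was 1.98 to 2.88 in synHPRT1R and 1.74 to 3.72 in synHPRT1. At that background the weakest peaks had a summit pileup of 8 to 11, so a region missing from a list is one that was not called at this depth.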

How the data were processed

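ATAC-seq was made from 12 libraries of mouse embryonic stem cells, grouped by genotype, clone and replicate number from the sample titles. Bowtie2 2.2.9, MACS2 2.1.0, SAMtools 1.9, bcl2fastq 2.20, deepTools 3.5.0 and the build names mm10 and GRCm38 come from the submitters' processing notes. For their settings, the treatment of duplicate and multi-mapping reads and any Tn5 shift, details were not given in the sources used here. The authors deposited 1 peak list per library, so peaks were called per library. In the deposited lists the score is an integer made from the q-value, the fold is a ratio of the summit to the local background, and the −log10 p-value and −log10 q-value describe the same summit. A fold is the authors' own value and was used only to rank or filter peaks within its list.

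Peaks of chromosomes 1 to 19, X and Y were merged into regions where they overlapped by at least 1 bp. Gene spans came from RefSeq (GRCm38.p6), whose table gives no strand, so ends are named by coordinate; strand was taken from the promoter table. For presence by genotype the test was Fisher's exact test (two-sided), and rank with an exact permutation test over libraries, both with Benjamini-Hochberg adjustment over the genome at a threshold of 0.05. Lists differ in length, so rank was tested in lists cut to 38403 peaks by −log10 p-value. The integer summit pileup and background were recovered from fold and −log10 p-value (tolerance 0.02). They describe depth and the coverage at summits and entered no test. All 8 genes, neighbours that a region touches and, per gene, the gene of most similar profile are named. The members and the gene lists were chosen with earlier results of these data known. Alternatives were a 2 or 5 kb window, a −log10 q-value of at least 5, lists of equal length, 50% coverage of a region, 500 bp from a gene end, ranking by −log10 p-value, a replicate block and leaving out each library. Scripts used Python 3.11.15, numpy 2.4.6, scipy 1.17.1 and pandas 2.3.3 and were tested on simulated data.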

Additional observations from a re-analysis of the deposited data

Results flagged for a closer look

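In synHPRT1R clone 2 replicate 3 the strongest Dppa2 peak stood at a percentile of 60.7% and the strongest Dppa4 peak at 54.7%, against 79.7 to 87.6% in the other 5 synHPRT1R libraries. Both genes were singled out because this library lay far from the rest of its genotype: the gap to the nearest library was 0.704 of the whole range for Dppa2 and 0.758 for Dppa4, above the critical value of 0.625 for 6 samples. They are not independent, since the Dppa4 value and the low rank at Dppa2 come from the same region between the genes, whose place in the Dppa2 window was taken there by the next region, whose peak ended 1008 bp below the gene. The region at the lower end of Dppa4 was also missing from this library. Without it the mean for both genes was 83.0 ± 2.93% in synHPRT1R (SD, n = 5) and 82.1 ± 5.07% in synHPRT1 (SD, n = 6). A total of 18 sets of 6 libraries were checked in this way, and chance flags about 1 in 20. The cause was not tested.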

How the results depend on the processing

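The 16 regions listed in all 12 libraries fell to 9 with a 2 kb window, to 8 when the −log10 q-value had to reach 5 and to 2 when peaks had to cover 50% of a region, where 9.51% of all regions remained; the 2 were the region between Dppa2 and Dppa4 and that across the lower end of Dppa2. At 50% coverage the genes with such a region fell to 2 of 8, Dppa2 and Dppa4. Genes with a gene-end peak in all 12 libraries fell to 3 of 8, both at 500 bp and with that q-value limit. For these gene counts and for the 2 kb window, the shares over the genome are not given here. Whether the 8 genes fell more than other genes is thus not known. The median density was 1.69 with that limit, an alternative chosen after seeing the data. The difference in regions per library, -2.5, reversed to 0.333 in lists of equal length. Leaving out 1 library gave 16 to 18 regions in all libraries, 7 to 8 genes with such a region, 5 to 6 with a gene-end peak, densities of 2.37 to 2.65 and differences of -4.1 to -1.5 regions; 0 calls were gained. Replicate numbers did not visibly pair the libraries. Same-numbered libraries of different clones (18 pairs, within and between genotypes) had correlations of deviations of -0.0571 to 0.0707. Differently numbered ones (36 pairs) had -0.0643 to 0.0551. The replicate block gave p = 0.407 (exact permutation) for the regions per library and 0 calls. With a 2 kb window the strongest Dppa2 peak fell to 55.3%. Ranked by −log10 p-value, L1td1 stood at 76.5%, Tdgf1 at 73.0% and Utf1 at 70.6%. Read totals are unknown, so a region absent from a list is one not called at that library's depth.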
